A study of Mus musculus with 4 samples.

Results

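The cells described here are 92 neurons that carried transcripts of both Nkx2-1 and Tbx3 at embryonic day 15 and none, or few, of the transcripts that mark the better known neurons of the arcuate nucleus. They were chosen by their own counts of 9 genes. Barcodes were first limited to those in which 200 to 4500 genes were detected, mitochondrial transcripts made up no more than 10% of the UMIs and Hba-a1 gave no more than 10. A cell was a member if it held at least 1 UMI of Nkx2-1, at least 1 of Tbx3 and at least 2 of Stmn2, a microtubule-binding protein of growing neurons. It also had to hold no UMI of Otp, Fezf1, Nr5a1 and Ghrh, fewer than 2 of Nhlh2 and fewer than 3 of Pomc. A UMI is the count of 1 captured RNA molecule. The rule found 92 of the 6351 kept cells (of 6465 barcodes), or 2.30% of the 4006 cells with at least 2 Stmn2 UMIs (exact 95% binomial interval 1.86 to 2.81%). The remaining 3914 are called the other Stmn2 neurons, and the 92 members the Nkx2-1/Tbx3 neurons.

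All cells came from tissue labelled as the arcuate nucleus of mouse embryos, dissected under the guidance of a Pomc-eGfp transgene that every embryo carried on the C57BL/6 background. Tissue of 6 embryos was pooled into 1 droplet library, which was sequenced in 4 runs. The labels give the age as E15 in one field and as E15.5 in another. No mutant, treatment or second age was compared, and no cell could be assigned to an embryo or a run, so the library is 1 sample without replicates. No p-value is given for that reason, and intervals cover counting error only. The members held 331093 UMIs, with a median of 3045 per cell (1787 to 12276), against a median of 3423 in the other Stmn2 neurons. Their median mitochondrial share was 4.20%, against 4.05%.

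The arcuate nucleus lies at the base of the hypothalamus beside the third ventricle, and its neurons read hormones and nutrients and control feeding, growth and reproduction. NKX2-1 is a homeodomain protein of the ventral forebrain without which the ventral hypothalamus does not form, and TBX3 is a T-box repressor needed for arcuate neurons to take on their peptidergic identities. DLX homeodomain proteins, which recur below, drive GABAergic identity in the forebrain.

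Nkx2-1 (chromosome 12, 56531958 to 56536908, minus strand, GRCm38) was counted at 1 UMI in 42 members, with a median of 2 and a maximum of 6. Tbx3 (chromosome 5, 119670669 to 119684724, plus strand) was at 1 UMI in 62 members, at 2 in 22, and at 3 or 4 in 8. These values chose the cells and show only how thinly the choice rests. Just outside the rule lay 333 neurons that met every term but Tbx3 and 55 that met every term but Nkx2-1. A further 90 cells lacked only the Stmn2 term, 26 of them with 1 UMI, and 8 members sat at 2. Only the Otp term left out 47 cells, the Pomc term 35, the Nhlh2 term 33, the Nr5a1 term 8 and the Fezf1 term 6. Among members, 12 held 1 UMI of Nhlh2 and 6 held 2 of Pomc. In all, 280 kept cells met the Nkx2-1, Tbx3 and Stmn2 terms, and 188 of them were left out by another term.

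Zfhx4, a large zinc-finger homeodomain protein and the marker of these cells that the rule did not use, had a UMI in 41 of 92 members. Its pooled level was 172 CPM (UMIs of the gene per 1000000 UMIs of the group, exact 95% Poisson interval 130 to 223), against 74.2 in the other Stmn2 neurons. Since this marker stands alone, the cells are called by their rule. All 14 genes of a pan-neuronal list were detected, and every member held a UMI of that list. Lists of immature cells were present at levels like those of the other Stmn2 neurons. Progenitor genes summed to 414 against 481 CPM, with a UMI in 49 members, intermediate precursor genes to 396 against 405 CPM in 54, cell cycle genes to 109 against 106 CPM in 27, and tanycyte genes to 66.4 against 81.1 CPM in 16. Many markers of non-neural cells and glia were at 0. The macrophage list had 4 UMIs and 7 of 8 genes at 0, the oligodendrocyte precursor list 1 UMI and 4 of 5 at 0, the astrocyte list 5 UMIs and 3 of 5 at 0, and the mural list 4 UMIs and 5 of 7 at 0. The endothelial list gave 10 UMIs, with 4 of 7 at 0. Fibroblast genes summed to 45.3 CPM, against 33.3 in the other neurons, with Dcn and Lum at 0, and 10 of their 15 UMIs were in 1 member. Pituitary markers were at 81.5 against 88.3 CPM, with Lhx4, Gh and Prl at 0 and 10 of their 27 UMIs in 1 member. Haemoglobin-type transcripts, a sign of free RNA from red cells, were at 314 against 283 CPM. Neurons of other hypothalamic nuclei contributed 6 UMIs, with 9 of 12 markers, among them Sim1, Lhx6 and Foxb1, at 0.

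Genes were compared as the ratio of pooled CPM, given as log2 with an exact 95% counting interval. A gene was called higher or lower when the ratio was at least 2-fold and its interval left out 1, among genes with an average of at least 25 CPM over the groups compared. Against the other Stmn2 neurons, 84 of 5226 genes were called higher (1.61%) and 148 lower (2.83%). The members were chosen on their counts, so these are descriptions of the chosen cells. The plot of pooled levels shows how few genes left the diagonal and how far the leading ones did.

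**Figure D1:**
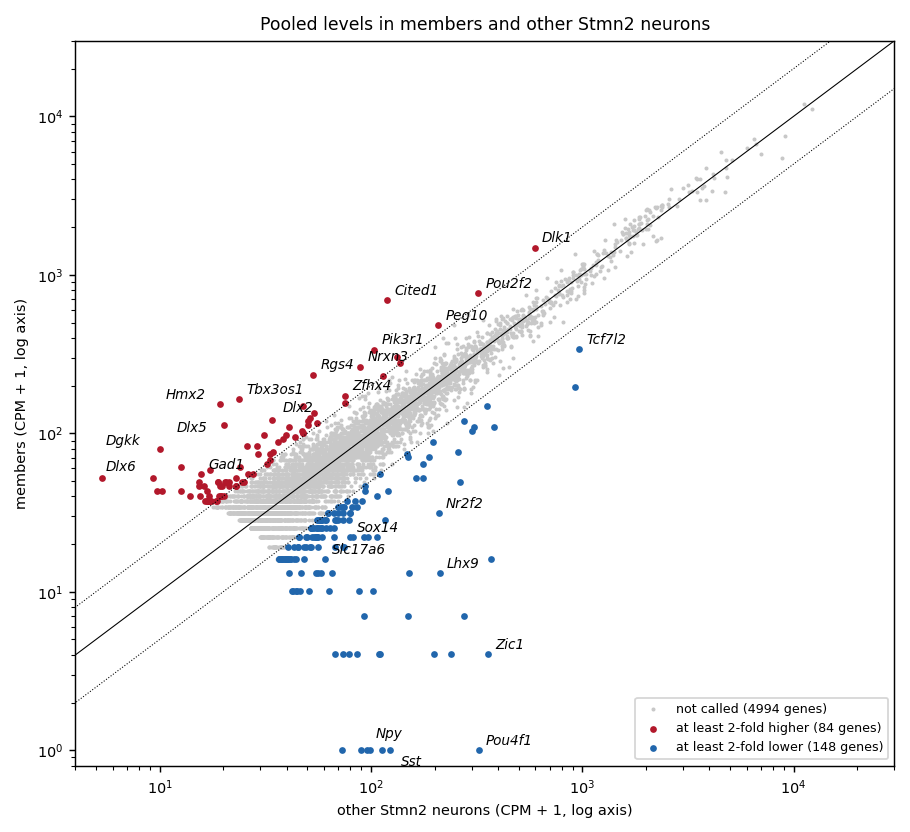
Pooled CPM of each tested gene in the 3914 other Stmn2 neurons (x axis) and in the 92 members (y axis), both with 1 added and on log axes. The solid line marks equal levels and the dotted lines 2-fold. Cited1, Hmx2, Dgkk and the Dlx genes stand above the upper line, and Pou4f1, Npy and Sst lie on the floor because the members held no UMI of them.

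Regulators of transcription were among the genes called higher. Hmx2 (chromosome 7, 131548773 to 131558014), a homeodomain factor known to act in the hypothalamic Ghrh lineage, was at 151 CPM (112 to 199) against 18.3, a log2 ratio of 3.04 (2.58 to 3.48), and 35 members held 1 to 4 UMIs. Its neighbour Hmx3 was too low to be tested, with 4 UMIs in 4 members. Cited1 (chromosome X, 102247381 to 102252181), a transcriptional coactivator without a DNA-binding domain, was found in most members. It was detected in 62 of 92 members at up to 10 UMIs, and its level of 692 CPM (605 to 787) stood against 118, a log2 ratio of 2.55 (2.34 to 2.74). Klf5, a zinc-finger factor, reached 42.3 against 8.73 CPM from 11 members. Pou2f2, a POU homeodomain factor, was in 76 members at 764 against 321 CPM, a log2 ratio of 1.25 (1.06 to 1.43).

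Tbx3os1, the antisense transcript that begins within Tbx3 (chromosome 5, 119570130 to 119671365, minus strand), was at 163 against 22.8 CPM, a log2 ratio of 2.84, in 30 members. It overlaps, on the other strand, the start of a gene used to choose the cells. Whether reads of the overlap were counted for both genes was not tested, so its level is not taken as independent of the rule. The Pomc neurons, which were not selected on Tbx3, also carried it, at 143 CPM (113 to 179). Tbx19, another T-box gene, had 6 UMIs in 6 members (18.1 against 4.96 CPM) and was below the level tested. Of the related zinc-finger homeodomain genes, Zfhx4 had a log2 ratio of 1.21, Zfhx2 0.68 (0.16 to 1.16) and Zfhx3 -0.14 (-0.42 to 0.14).

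The 9 listed GABA and Dlx genes, tested or not, summed to 565 CPM in members and 209 in the other Stmn2 neurons. Of them 8 were tested, 7 were called higher and none lower, and the median log2 ratio was 1.58, against 0.02 over all genes tested. The level tested is an average of the groups, and Dlx5, Dlx6, Dlx6os1, Gad1 and Slc32a1 were below it in the other neurons, so they were tested only because they were high in the members, and neither the count nor the median is support for the group. Dlx5 and Dlx6, neighbouring genes on chromosome 6, had log2 ratios of 2.54 (2.01 to 3.04) and 2.63 (1.81 to 3.37). Dlx2 followed at 1.87 (1.36 to 2.33) and Dlx1, its neighbour on chromosome 2, at 1.17 (0.51 to 1.76). Gad1, which makes GABA from glutamate, was at 54.4 against 14.7 CPM, and Slc32a1, which loads GABA into vesicles, at 45.3 against 22.0. Dlx6os1, which overlaps Dlx6 on the other strand, had a log2 ratio of 1.29. Gad2, with 9 UMIs at 27.2 against 22.2 CPM, was just under the level tested. No member held more than 2 UMIs of Gad1, Gad2 or Slc32a1, so each gene was seen near the limit of detection.

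Because shares of cells with a UMI depend on depth, cells were thinned to 2282 UMIs each, which left 87 of the 92 members and 3519 of the other Stmn2 neurons. A Dlx UMI was then found in 50.6% of members (39.6 to 61.5%) and in 12.7% of the others (11.6 to 13.8%). Before thinning the shares were 55.4% and 15.9%. Gad1, Gad2 or Slc32a1 was found in 28.7% of members (19.5 to 39.4%) and 11.6% of the others, and in 32.6% and 15.9% before thinning. Slc17a6, the vesicular transporter of hypothalamic glutamate neurons, was found in 2.30% of members (0.28 to 8.06%) and 11.6% of the others, and in 5.43% and 18.1% before thinning. With all UMIs, 28 members had GABA genes only, 3 had Slc17a6 only, 2 had both and 59 had neither.

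Free RNA in the droplets was gauged in 68 cells with no Stmn2 and at least 5 UMIs of Col1a1 or Col3a1, which should lack these genes and had a median of 3856 UMIs. After thinning, none of 65 such cells held a GABA gene or Slc17a6 (exact upper limit 5.52%), and 1 held a Dlx UMI (1.54%, 0.039 to 8.28%). The intervals of the members' GABA and Dlx shares lay above these limits, and that of their Slc17a6 share, 0.28 to 8.06%, did not.

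**Figure D2:**
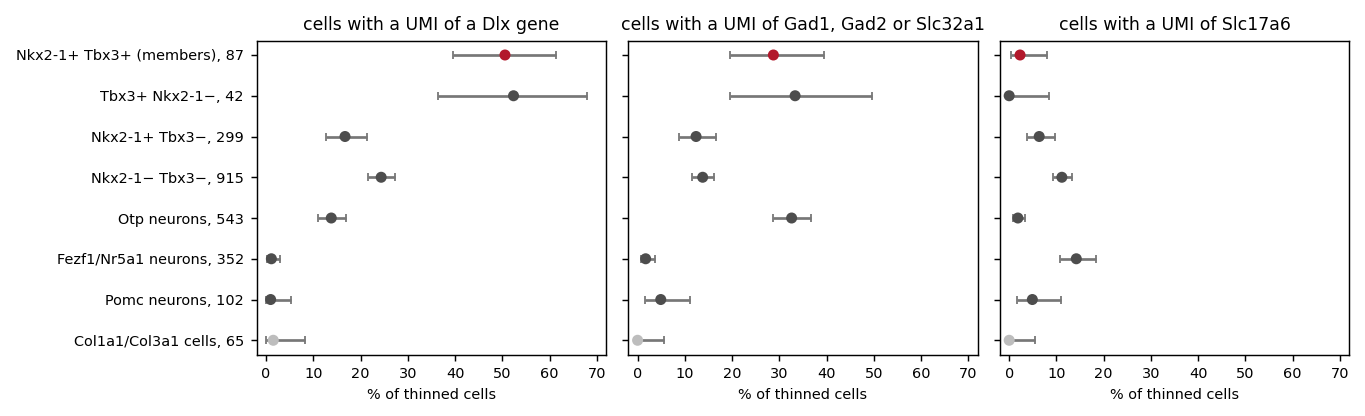
Share of cells with at least 1 UMI of a Dlx gene (Dlx1, Dlx2, Dlx5, Dlx6 or Dlx6os1), of a GABA gene or of Slc17a6, after thinning every cell to 2282 UMIs, with exact 95% binomial intervals. The number of thinned cells stands beside each group. Members and the Tbx3 neurons without Nkx2-1 have the highest Dlx shares, at 50.6% and 52.4%.

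Genes of neuronal signalling were mixed. Dgkk, a diacylglycerol kinase, had the highest ratio of the called genes found in at least 10% of members, at 78.5 against 8.99 CPM (log2 ratio 3.13, 2.46 to 3.74), from 17 members. Rgs4, which shortens signalling of G-protein-coupled receptors, was in 40 members at 233 against 52.4 CPM, a log2 ratio of 2.15 (1.79 to 2.49). Irs4, an insulin receptor substrate of the hypothalamus, and Pik3r1, the regulatory subunit of phosphoinositide 3-kinase, had log2 ratios of 1.71 (1.09 to 2.27) and 1.70 (1.41 to 1.98). Sesn3, a sestrin that restrains mTORC1 signalling, stood at 1.66 (1.21 to 2.08). Nrxn3, a presynaptic adhesion protein, was in 52 members at 263 against 88.1 CPM and was the 1 called gene of 17 tested in the adhesion list. Of 8 ion channel genes, Kcnip1 was called higher (1.18) and Scn2a1 lower (-1.65). Of 8 transmitter receptor genes, Gabra5 was called higher (1.09) and Gabra2 lower (-1.39). Gabra5 lost its call without 11 members that carried another set of genes and are described further on, at 65.1 against 46.8 CPM (0.48, -0.31 to 1.16). Fgf14, a sodium channel partner, Rab36, Rfc5, Wdr20 and Trank1 completed the 20 leading genes, with log2 ratios from 1.55 to 1.86.

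Peptide genes were sparse in these cells. The 5 peptide genes tested each passed the average level through 1 of the groups only, so their number in each direction is set by that filter. Pnoc, which encodes nociceptin, was called higher, at 42.3 CPM (23.1 to 70.9) against 9.26, and it was found in 12 members, 10 of which also held a GABA gene. Npy and Sst had no UMI in any member, against 112 and 122 CPM in the other neurons. With 3 UMIs over the whole group in their place the log2 ratios are -3.63 and -3.76, so the levels were at least that much lower. Avp and Tac1 were at 1 UMI each, with log2 ratios of -5.18 (-10.48 to -2.70) and -4.69 (-10.00 to -2.21). Cartpt, Penk, Kiss1 and Nts had none, and Gal and Tac2 had 1 UMI each. Th, the enzyme of dopamine synthesis, was at 1 UMI in 4 members. Pdyn, which encodes dynorphin, was below the level tested but had 12 UMIs in 11 members (36.2 CPM, 18.7 to 63.3, against 10.6). The rule left out cells with Otp, and the Otp neurons, with Npy and Sst at 624 and 801 CPM, were counted among the others. The low Npy and Sst ratios thus follow in part from the rule. Against the Nkx2-1 neurons without Tbx3, which met the same exclusions, 2 of 25 peptide genes were tested, 1 called higher and 0 lower.

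Esr1, the oestrogen receptor of the reproductive arcuate nucleus, was likewise below the level tested. It had 8 UMIs in 8 members, or 24.2 CPM (10.4 to 47.6), against 2.12 CPM (1.45 to 2.99) in the other Stmn2 neurons. The 55 Tbx3 neurons without Nkx2-1 and the Pomc neurons held 1 UMI each, too few to be ordered. Of the 8 cells with Esr1, 3 also held Pdyn, 5 a Dlx gene and 6 Cited1. Of the other hormone receptors, Thra, a thyroid hormone receptor, was found in 69 members at 468 against 515 CPM, Igf1r in 17 at 57.4 against 73.3 CPM and Insr in 10 at 36.2 against 21.6 CPM. These 3 were tested and not called. Lepr had 1 UMI, and Ghsr, Mc3r, Mc4r and Glp1r had none.

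Among the 20 genes with the highest ratios, 15 had a RefSeq promoter window (GRCm38.p6, from 250 bases before to 50 after the start). The windows were searched on both strands for the T-box letters GGTGTGA, the NKX2-1 core CTCAAG and the homeodomain core TAATTA, which do not overlap one another in letters. The NKX2-1 core was found at 1 of the 15 genes, against 18.0% of the 27025 genes with a promoter window, and the other motifs at none, against 4.60% and 6.12%. The match was in the Irs4 window (chrX:141725168-141725467, minus strand), shown because it is the only one found, with the match in capitals 132 bases before the start.
Irs4: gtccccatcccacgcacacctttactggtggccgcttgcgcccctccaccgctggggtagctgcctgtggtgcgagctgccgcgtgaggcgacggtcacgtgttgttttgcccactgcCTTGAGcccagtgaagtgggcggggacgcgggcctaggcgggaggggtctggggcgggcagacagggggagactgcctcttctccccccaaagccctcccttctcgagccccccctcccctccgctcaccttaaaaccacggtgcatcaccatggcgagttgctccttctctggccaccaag
The match is a description of letters and says nothing of binding.

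The lowest ratios included those of several regulators of other diencephalic neurons. Pou4f1 and Rspo3, genes of the habenula, Kitl, Nrn1 and the noncoding Pantr1 had no UMI in the members. Pou4f1 was at 322 CPM in the other Stmn2 neurons, a log2 ratio of at most -5.15 with 3 UMIs in place of 0. Zic1, Zic4, Zic5, Irx2 and Nwd2 had 1 UMI each, with log2 ratios from -6.88 for Zic1 (-12.19 to -4.40) to -4.81 for Irx2 (-10.11 to -2.33), and Gng8 had 2. The average level tested also favours calls of lower genes, since a gene near 0 in the members was tested only where the others were high. Of a thalamus and habenula list, 4 of 9 genes were tested and called lower, among them Kitl, Pou4f1 and Lhx9, which held 0, 0 and 4 UMIs in the members. The list's summed level over all 9 genes was 356 CPM in members and 1668 in the others, and Tcf7l2 still gave 338 CPM in 49 members. The same sum was 562 CPM in the Nkx2-1 neurons without Tbx3, 448 in neurons with Nkx2-1 and Fezf1 or Nr5a1, and 300 in Otp neurons. Against each of these groups 1 gene of the list was tested and it was not called, so the low level was not particular to the members. Of 8 tested Ebf, Zic, Pou and Lhx genes, Ebf1, Zic1, Zic5 and Lhx9 were called lower and none higher. The other Stmn2 neurons hold many cell types, and the part of their makeup in these ratios was not tested.

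Maturity and timing genes differed less. Nr2f2, an orphan nuclear receptor of neural development, was at 30.2 against 209 CPM (log2 ratio -2.79, -3.85 to -1.91), in 6 members. Nr2f1 and Nfia were also called lower, at -1.91 and -1.05, so that 3 of 7 tested timing factors were called lower and Pou2f2 higher. Over all genes tested, 2.83% were called lower and 1.61% higher. Nr2f1, found in 2 members, passed the average level through the others, where it was at 45.4 CPM. The 10 listed timing factors, Pou2f2 among them, summed to 1290 CPM in members and 1182 in the others. Without the same 11 members Nfia was at -0.70 (-1.71 to 0.14) and, in axon guidance, Nrp1 at -0.72 (-1.85 to 0.21), and neither was called. Of 14 pan-neuronal genes only Nefl, a neurofilament of grown axons, was called lower (-2.09, -3.22 to -1.16). The list's median was -0.38, with Ina at -0.68 and Tubb3 at -0.45. In axon guidance, Robo1, Slit2, Epha5, Epha7 and Nrp1 were called lower among 13 tested genes and none was higher, beside 2.83% lower over all genes. The average level tested favours lower calls here too. All 27 listed genes summed to 1021 CPM in members and 1192 in the others. Against the Nkx2-1 neurons without Tbx3, only Slit2 of 12 tested genes was called lower. In the 19 members with at least 2 UMIs of both Nkx2-1 and Tbx3, Nr2f1, Epha5 and Epha7 turned to log2 ratios of 0.045, 0.23 and 0.16, and Dlx6os1 to -0.11. Pcsk2, a prohormone convertase, was at 21.1 against 105 CPM. Junb was called higher (1.04, 0.61 to 1.45) among 7 immediate early genes tested, and was found in 43.1% of the thinned Col1a1/Col3a1 cells as well. Its ratio was just past the 2-fold limit, and 5 of its 51 UMIs were in the 1 member that held most of the fibroblast UMIs.

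Of 14 tested imprinted genes, 2 were called higher than in the other Stmn2 neurons (1.61% of all genes tested were) and none lower. Their median log2 ratio was 0.49, against 0.02 over all genes tested. The 15 listed genes summed to 19979 CPM in members, 17408 in the other Stmn2 neurons and 19808 in the Otp neurons. Against the Otp neurons the median was 0.088 and the 1 called gene was H19. Of its 15 UMIs, 9 were in the 1 member that held most of the fibroblast UMIs. Dlk1, a maternally silenced ligand-like membrane protein, was in 83 of 92 members at up to 17 UMIs, at 1483 against 594 CPM, a log2 ratio of 1.32 (1.19 to 1.45). Peg10 was in 66 members with a log2 ratio of 1.22 (0.98 to 1.45). Peg3, Magel2 and Zdbf2 lay just under 2-fold, at 0.95, 0.90 and 0.80. Nnat was lower, at -0.29 (-0.35 to -0.22). Dlk1 was not particular to the members, since the Otp neurons were at 1599 CPM and the Tbx3 neurons without Nkx2-1 at 1723.

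**Figure D3:**
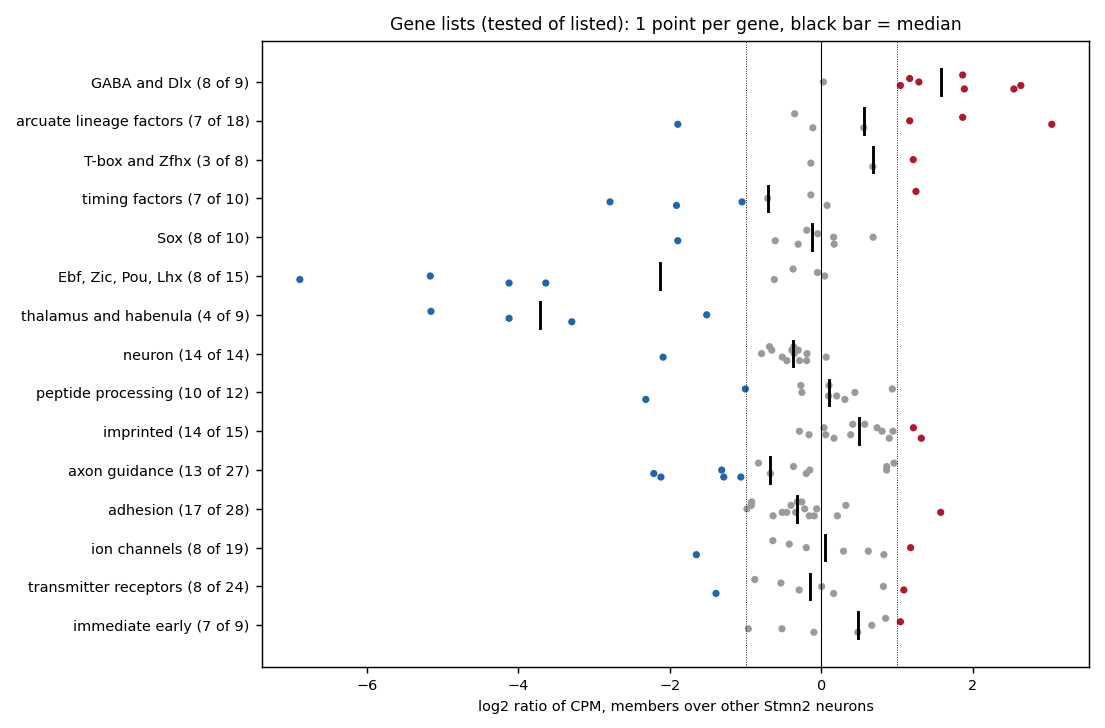
Log2 ratio of pooled CPM, members over the other Stmn2 neurons, for each tested gene of 15 lists. Black bars are medians, dotted lines mark 2-fold, red and blue points are genes called higher and lower, and genes at 0 in the members are drawn with 3 UMIs in place of 0. The GABA and Dlx list lies mostly to the right and the thalamus and habenula list to the left, but several genes of each passed the average level tested only through the group where they were high.

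The members were next compared with the 333 neurons that met every term except Tbx3 (median 3160 UMIs). Here 99 of 5182 genes were called higher in members (1.91%) and 104 lower (2.01%). Apart from Tbx3os1 (2.36), Dgkk led with a log2 ratio of 2.58 (1.64 to 3.55), followed by Pnoc at 2.19 (0.97 to 3.43), Wdr20 at 2.07, Gad1 at 2.05 (1.01 to 3.09) and Dlx6 at 1.88. Cited1 was at 692 against 199 CPM, a log2 ratio of 1.80 (1.54 to 2.06), Hmx2 at 151 against 52.6, and Zfhx4 at 172 against 79.6. Ecel1, a membrane peptidase of developing neurons, joined the leading genes at 1.75 (0.79 to 2.71). Of the 9 GABA genes, all tested here, 5 were called higher, with a median of 1.23 against 0.02 over all genes, under the same limit of the filter. Insr was called higher at 1.30 (0.13 to 2.42), beside Irs4 at 1.17 and Pik3r1 at 1.27, but not without the 11 members (0.87, -0.63 to 2.18).

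Genes lower than in the Nkx2-1 neurons without Tbx3 included regulators and precursor genes. Nr2f2 was at 30.2 against 254 CPM, and Sox14, a repressor of the SoxB group, at 21.1 against 141 CPM, a log2 ratio of -2.74 (-4.08 to -1.67), with 5 members positive. Prdm12, a regulator of Pomc neurons, had 3 UMIs and a ratio of -2.28 (-4.60 to -0.66). Fabp7, a fatty acid binding protein of radial glia, had 3 UMIs and a ratio of -3.85 (-6.14 to -2.28). Of 10 listed progenitor genes 5 were tested. Of these, Fabp7, Sox2 (-1.39) and Hes1 (-1.99) were called lower and none higher, beside 2.01% lower over all genes tested. Fabp7 and Hes1 were below the level tested in the members and passed the average only through the other group, at 131 and 47.9 CPM. Their calls are therefore no support for a drop of the whole list. Tmem47 and Fam19a1 were also low, with 2 and 3 UMIs, and the metal-binding Mt1 was at 18.1 against 105 CPM. The choice by low Nhlh2 and Pomc applied to both groups alike.

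Against the 368 neurons with Nkx2-1 and Fezf1 or Nr5a1, which mark the ventromedial nucleus (median 4554 UMIs), 158 of 5147 genes were called higher in members (3.07%) and 168 lower (3.26%). Dlx6 had no UMI in those cells, which puts it at least 4.98 higher on the log2 scale with 3 UMIs in place of 0. Dlx5, at 1 UMI there, had a ratio of 7.69 (5.12 to 13.03). Hmx2, Dlx1 and Dlx2 stood at 6.13, 6.07 and 5.48, and Cited1 at 5.07 (4.57 to 5.61). Nrxn3 was at 263 against 24.9 CPM. Sox14 and Nr2f2 were lower again, at 21.1 against 246 and 30.2 against 371 CPM. Vstm2a and Glra2, with 2 UMIs each in members, Spock1 and Mt1 were lower too, with log2 ratios from -3.99 (-7.05 to -2.12) to -2.71.

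Against the 645 Otp neurons (median 2795 UMIs), the lineage that makes Agrp neurons, 101 of 5199 genes were called higher (1.94%) and 81 lower (1.56%). Npy and Sst, at 624 and 801 CPM there, were absent from the members' counts, at least 6.11 and 6.47 lower on the log2 scale. Agrp had 2 UMIs in members, a ratio of -3.38 (-6.44 to -1.50), and Calcr, the calcitonin receptor, 3 UMIs and a ratio of -3.67 (-5.96 to -2.11). Pdzrn4, Nyap2 and Ap3b1 were the other leading lower genes. Isl1, a LIM-homeodomain factor of many arcuate neurons, was in 51 members but lower than in Otp neurons, at 296 against 691 CPM. Dlx6 and Dlx5 were higher, at 3.25 and 3.18, and so was Pik3r1, at 2.03. Car10 (2.81) and Robo2 (2.03) were called higher too, but only 10 members held each of them, and without the 11 members both were level, at 0.15 (-2.23 to 1.90) and -0.039 (-2.41 to 1.68). The thinned GABA share did not separate these groups, at 28.7% (19.5 to 39.4%) in members and 32.6% (28.7 to 36.7%) in Otp neurons. Gad2 was lower in the members, at 27.2 against 57.5 CPM, and lost its call without the 11, at 34.5 CPM.

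The levels of the 55 neurons with Tbx3 but no counted Nkx2-1 (median 2912 UMIs) lay close to those of the members for most leading genes. Cited1 was at 771 CPM (643 to 917) there, Dlx5 at 102 (59.7 to 164), Dgkk at 66.3 (33.1 to 119), Nrxn3 at 271 (198 to 363) and Pik3r1 at 325 (244 to 424), and each interval overlapped that of the members. Hmx2 was at 84.3 CPM (46.1 to 141) against 151 (112 to 199). In order of Hmx2 level came the members, these cells, the Nkx2-1 neurons without Tbx3 at 52.6 (40.8 to 66.6) and the Otp neurons at 41.8 (33.4 to 51.7), and the intervals of each pair of neighbours overlapped. In order of Cited1 level, the Tbx3 neurons without Nkx2-1 and the members came first with overlapping intervals, then the Otp neurons at 384 (357 to 411), the Nkx2-1 neurons without Tbx3 at 199 (175 to 224) and the Pomc neurons at 139 (109 to 175). For Zfhx4 the same pair led, at 172 (130 to 223) in members and 151 (97.5 to 222) in the Tbx3 neurons without Nkx2-1. The Zfhx4 interval of the members lay above those of the other 5 groups of neurons drawn. At 1 to 2 UMIs per cell, a neuron without a counted Nkx2-1 UMI may still have expressed the gene.

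**Figure D4:**
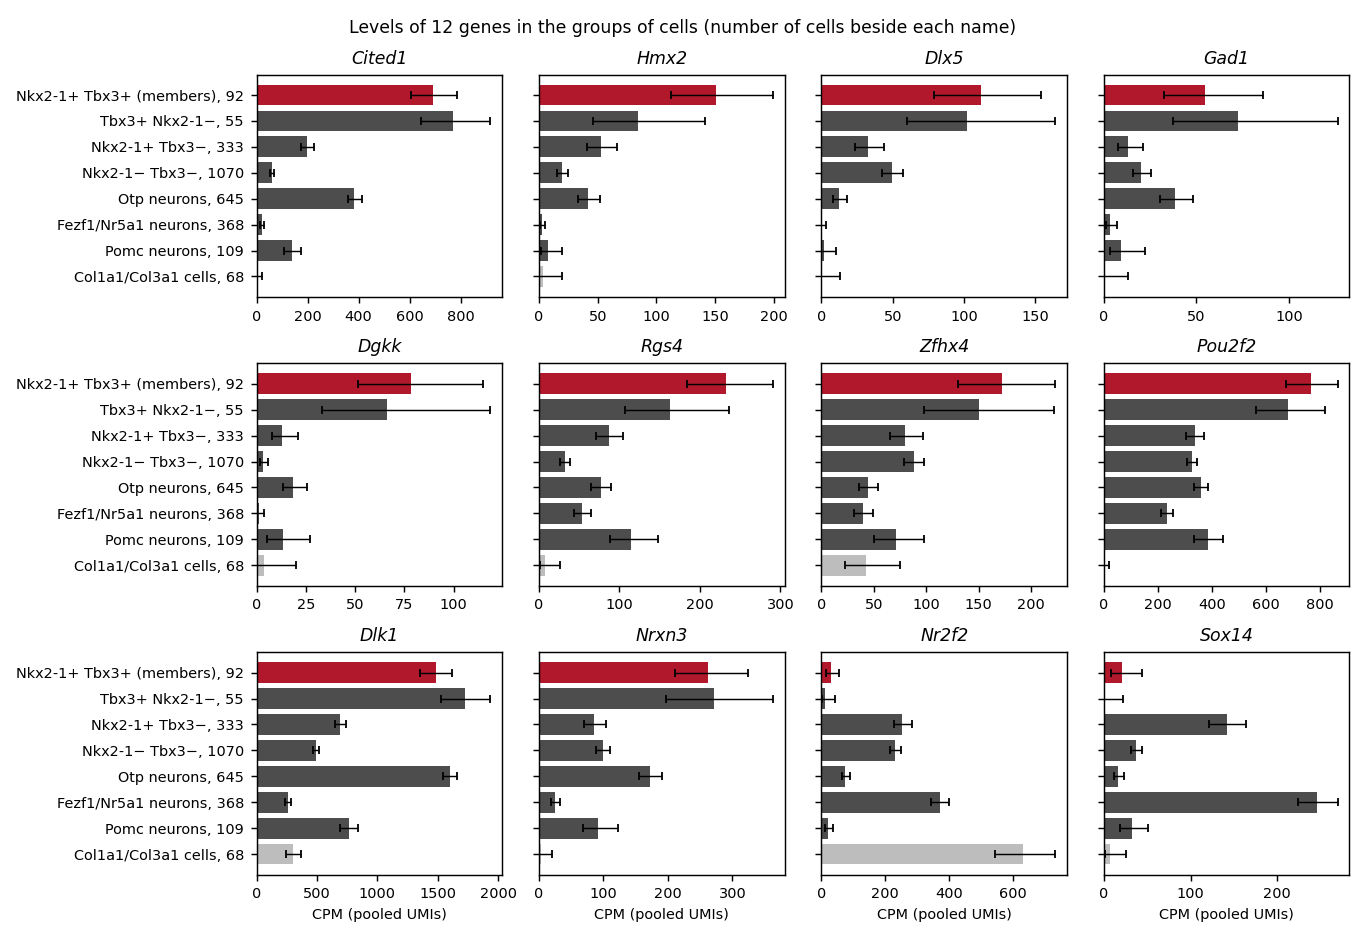
Pooled CPM of 12 genes in the members (red) and in 7 other groups of cells, with exact 95% Poisson intervals and the number of cells of each group. The Nkx2-1− Tbx3− group also met the terms on Stmn2, Otp, Fezf1, Nr5a1, Ghrh, Nhlh2 and Pomc. Cited1, Dlx5, Dgkk and Nrxn3 show similar bars in the first and second groups, and Nr2f2 and Sox14 are low in both.

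The members were not alike. A Dlx UMI was found in 51 of them and none in 41, at similar depth (medians of 3020 and 3051 UMIs). Of the 51, 23 held 1 of the 5 Dlx genes, 16 held 2, 11 held 3 and 1 held 4. Dlx, Cited1 and Hmx2 were all found in 23 members, and 20 held none of them. Every member with Hmx2 also held Dlx or Cited1. Hmx2 was at 261 CPM in the members with Dlx and at 37.0 in those without, a log2 ratio of 2.82 (1.58 to 4.34). Cited1 was at 954 against 419 CPM, Rgs4 at 338 against 123, Nrxn3 at 373 against 148, Zfhx4 at 237 against 105 and Peg10 at 610 against 345. This split was made on counts of the same cells and is a description.

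A few of the members without Dlx carried another set of genes. Foxp2, a forkhead factor, Car10, Sox21, of the same group as Sox14, Cacna2d1, a calcium channel subunit, and Robo2, an axon guidance receptor, were grouped after their values were seen. At least 2 of the 5 were found in 11 of 92 members (interval of the share 6.12 to 20.4%), of which 2 held Dlx, 3 Cited1 and 1 Hmx2, and 3 of the 5 members with Slc17a6 were among them. These 11 cells held 27 of the 28 Foxp2 UMIs, 21 of 24 for Car10, 13 of 17 for Sox21, 17 of 20 for Cacna2d1 and 13 of 16 for Robo2. Most were deeper than the rest, with a median of 6396 UMIs (2376 to 11608) against 2993 in the other 81 members. Their 9 cells without Dlx gave 37.5% of all UMIs of the 41, and 6 of the 11 lay at the edge of the rule with 1 UMI each of Nkx2-1 and Tbx3. Without the 11, 63 of the 66 called genes followed against the other Stmn2 neurons kept their call, as did 48 of 49 against the Nkx2-1 neurons without Tbx3, 60 of 61 against the Fezf1 or Nr5a1 neurons and 42 of 52 against the Otp neurons. Hmx2 was then at 184 CPM and Cited1 at 862, against 18.3 and 118 in the other Stmn2 neurons.

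Over all 41 members without Dlx, Isl1 (376 against 219 CPM), Mapt (813 against 480) and Snap25 (191 against 77.0), the latter pair being neuronal genes, were higher than in the members with Dlx. Without the 11 cells, which were left out after their values were seen, the intervals of these ratios included equal levels, with Isl1 at 306 against 219 CPM and Mapt at 611 against 482. Hmx2 stayed higher in the members with Dlx, at 263 against 59.2 CPM (log2 ratio 2.15, 0.91 to 3.68), and so did Cited1 (0.61, 0.19 to 1.05), Nrxn3 (1.07, 0.32 to 1.90) and Rgs4 (0.82, 0.016 to 1.68). The intervals of Zfhx4 and Peg10 then included equal levels. Sox2 was lower in the members with Dlx with and without the 11 cells, at 3 against 10 UMIs without them. Of the 12 members with an Nhlh2 UMI, just inside the rule, 10 were without Dlx, and 16 of the 41 held Pomc at 1 or 2 UMIs, against 7 of the 51.

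Since detection of at least 2 of the 5 genes depends on depth, the share was also taken after thinning. It was 5.75% in the members (1.89 to 12.9%), 26.1% in the Fezf1 or Nr5a1 neurons (21.6 to 31.1%), 24.5% in the Pomc neurons (16.5 to 34.0%) and 20.7% in the Nkx2-1 neurons without Tbx3 (16.3 to 25.8%). In the Tbx3 neurons without Nkx2-1 it was 4.76% (0.58 to 16.2%), and in the Col1a1/Col3a1 cells 7.69% (2.54 to 17.0%). The interval of the members overlapped that of these cells without Stmn2. Before thinning the shares were 54.1%, 42.2% and 32.1% in the first 3 of these groups to be set beside the members.

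**Figure D5:**
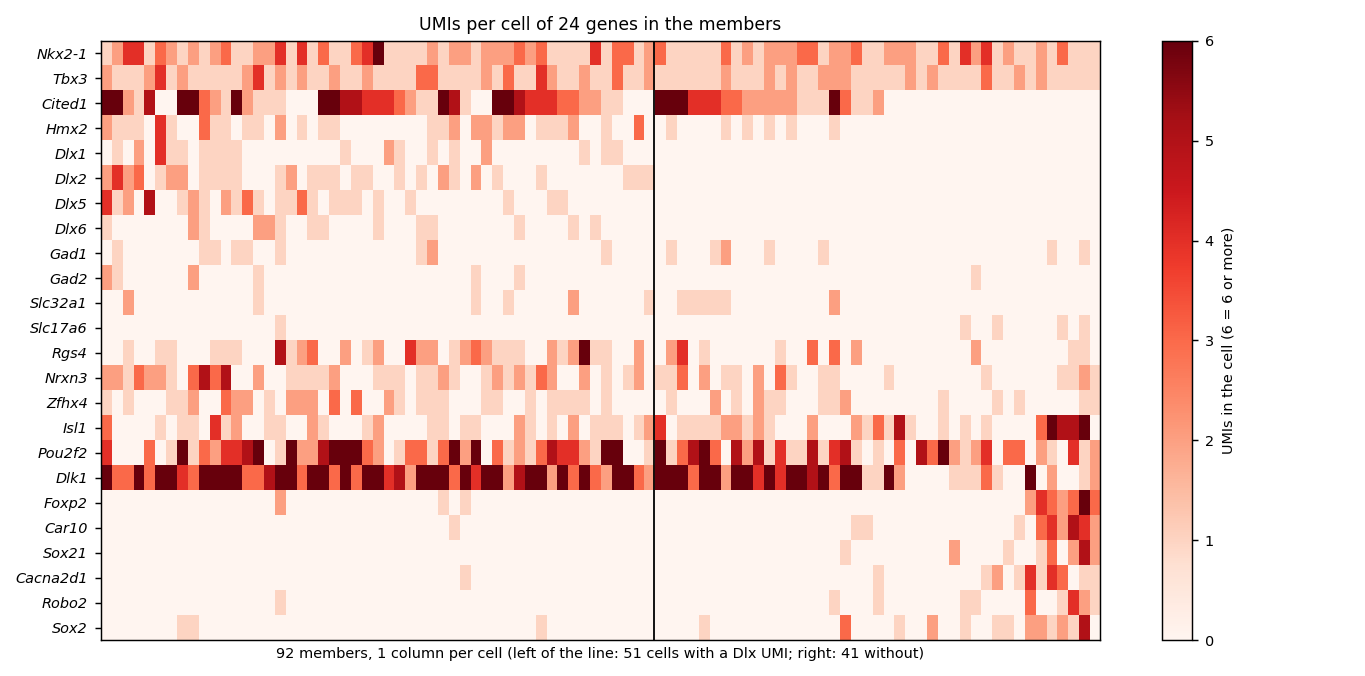
UMIs of 24 genes (rows) in each of the 92 members (columns), with cells that held a Dlx UMI to the left of the line and the 41 without to the right. Cited1 and Dlk1 run across both sides, and Foxp2, Car10, Sox21, Cacna2d1 and Robo2 gather mainly in a few columns at the right edge, where Cited1 is at 0.

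The members were also divided by Cited1, which 62 held (median 3064 UMIs) and 30 did not (2978). Among the 30 were 8 of the 11 members with the other set of genes, so the values that follow are without the 11, in 59 members with Cited1 and 22 without. Dlk1 was at 1890 against 1244 CPM (log2 ratio 0.60, 0.25 to 0.97). Vim, an intermediate filament of precursors, was at 373 against 79.7 CPM (2.23, 0.94 to 3.89). Gad1 was found in 13 of the 59 and none of the 22. Nnat was slightly lower with Cited1, at 4369 against 5072 CPM (-0.22, -0.40 to -0.025). The intervals of Pou2f2, Dgkk, Pnoc, Six3 and Six6 included equal levels. Over all 92 members Dlk1 had been at 1884 against 776 CPM, Pou2f2 at 909 against 509, Nnat at 4511 against 7928 and Six6 at 99.4 against 217.

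Of the 6 members with Tbx19, 4 held a Dlx UMI, and Tmem215, a membrane protein gene of adult arcuate neurons, had 1 UMI in all members.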

How the data were processed

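Single cells of the arcuate region of 6 pooled embryos were captured on the 10x platform. The deposited table holds unnormalised UMI counts of each gene in each barcode, which the authors made with Cell Ranger 2.1.1 and STAR 2.4.0 on mm10, per the labels. Whether strand was used is not given in the sources used here. The 4 GEO samples are runs of 1 library and form 1 sample. The table held 27998 genes and 6465 barcodes, none duplicated, and 6351 were kept. No doublets were removed.

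The members, gene lists and comparisons were chosen with earlier results of these data known. UMIs were summed per group and scaled to CPM, with exact Poisson, conditional binomial (ratios) and Clopper-Pearson (shares) 95% intervals (Python 3.11.15, scipy 1.17.1, pandas 2.3.3). The ratio procedure was run on simulated counts, drawn as independent Poisson values from the pooled profile with known changes imposed. The simulation held no mixture of cell types and no choice of cells on their own counts, so it does not bear on the calls for cells chosen that way. The 9 rule genes were left out of the comparisons. Shares were also taken after thinning each cell to 2282 UMIs, the 10th percentile of the Stmn2 neurons (seed 7). The comparisons share the same 92 members. The genes named were those of the rule and of 38 lists, and the 20 highest and 12 lowest ratios against the other Stmn2 neurons (10 and 6 in the other comparisons) among called genes with a UMI in at least 10% of cells of the higher group, without predicted and mitochondrial genes. Otp neurons had Stmn2 at 2 UMIs or more, Otp at 1 or more and the remaining limits of the rule. Gene positions were from GENCODE vM21 and promoters from RefSeq.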

Additional observations from a re-analysis of the deposited data

How the results depend on the processing

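The number of members depended most on the thin counts of the genes that chose them. It was 19 with Nkx2-1 and Tbx3 at 2 UMIs or more each, and 56 when the rule was applied to thinned counts, of which 46 were among the 92. Genes called higher than in the other Stmn2 neurons numbered 84. They were 194 (40 shared) in those 19 cells, 131 (62 shared) with Stmn2 at 5 UMIs or more, 143 (62 shared) with Pomc and Nhlh2 at 0, 134 (64 shared) in cells of 2377 to 5052 UMIs, and 133 (84 shared) without mitochondrial, ribosomal protein and haemoglobin genes. At 10 CPM or more they were 183 and without a filter 299, and the 148 lower genes became 261 and 313. Against the Nkx2-1 neurons without Tbx3, the 99 higher genes became 182 (35 shared) in the 19 cells, 184 at 10 CPM and 220 without a filter, and the 104 lower ones 178 and 210. At 2 UMIs or more, the share of members with Slc17a6 was 0 and that with GABA genes 7.61%. In the 19 cells the log2 ratios of Dlx6os1 (-0.11), Epha5 (0.23), Epha7 (0.16) and Nr2f1 (0.045) changed sign, and the cause was not tested. Of 66 called genes followed, 24 stayed within their interval under every alternative cell selection or scaling. Scrublet called 7 of 6351 cells (0.11%) and no member, too few for it to have worked, so doublets remain untested. No paired analysis was possible because the cells came from 1 library and 1 group.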
